A study of Mus musculus with 38 samples.

Results

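The sites described here are stretches of open chromatin of mouse embryonic fibroblasts (MEFs) for which no ATAC-seq peak was listed any more after a retrovirus had delivered SALL4, in its wild-type form (SALL4-WT) or without its N-terminal 12 residues (SALL4-delN12). They were selected from the ATAC-seq peak lists themselves. A site was kept when its MEF peak had a score of at least 100 and shared not even 1 bp with a peak of any of the 8 libraries of SALL4-WT and SALL4-delN12 at days 1, 5, 9 and 11. Of 125470 MEF peaks, 75284 reached this score, and 11542 of them (15.3%) met the rule. They are called lost MEF sites below, where lost means only that no peak was listed. The other 63742 MEF peaks of that score, with a peak in at least 1 of the 8 libraries, serve as the comparison.

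The MEFs came from E13.5 embryos of OG2 males, which carry an Oct4-GFP transgene, and 129S4/SvJaeJ females, and the MEF library was made without SALL4 virus. The cells of the 8 libraries had received Sall4 virus and were cultured in iCD3, a reprogramming medium, without BMP4. No library of MEFs given an empty virus and moved to iCD3 was analysed here, so the effects of SALL4, of infection and of the medium cannot be told apart. Cut&Tag libraries of SALL4 and of H3K27ac, the acetylation of active enhancers and promoters, were made in both forms at day 6, and RNA-seq libraries at the days of the ATAC-seq. Each condition had 1 sample, and no test was run between conditions, nor between the forms with the days as pairs. Intervals are exact (Clopper-Pearson) 95% intervals, which cover counting error only and not the spread between cultures. As a check of the MEF label, the start sites of 10 of 10 fibroblast marker genes, among them Col1a1, Thy1 and Twist1, had a MEF peak of score 100 or more within 2 kb, against 2 of 10 macrophage, 4 of 10 endothelial and 2 of 10 skeletal muscle markers.

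Enhancers are short regulatory stretches, mostly far from gene starts, that are kept free of nucleosomes by transcription factors. In fibroblasts, many of them are bound by the AP-1 family (FOS and JUN proteins), TEAD factors, RUNX factors and nuclear factor I (NFI), and in reprogramming they are among the regions that lose accessibility early. SALL4 is a zinc finger protein of early embryos that binds AT-rich DNA and, through its first residues, recruits NuRD, a complex that deacetylates histones and remodels nucleosomes. SALL4-delN12 lacks the contact with NuRD.

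A few of the lost MEF sites give an impression of their sequence. Each is shown as the central 200 bases of the MEF peak, from the plus strand of the mm10 build (RefSeq GRCm38.p6). Capitals mark the letters TGACTCA (AP-1), GGAATG (TEAD), TTGGCA (NFI), ATGCAAAT (POU factors) and AATATT (an AT-rich run of the kind SALL4 binds) on either strand. The first 3 are the highest-scoring lost sites outside untranslated regions and are named after the gene with the nearest start site.
Pole4 site, chr6:82640157-82640356: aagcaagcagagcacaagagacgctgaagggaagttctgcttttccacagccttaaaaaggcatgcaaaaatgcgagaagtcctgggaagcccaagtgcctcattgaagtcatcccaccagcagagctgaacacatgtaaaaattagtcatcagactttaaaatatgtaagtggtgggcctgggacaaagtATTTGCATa
Recql site, chr6:142367709-142367908: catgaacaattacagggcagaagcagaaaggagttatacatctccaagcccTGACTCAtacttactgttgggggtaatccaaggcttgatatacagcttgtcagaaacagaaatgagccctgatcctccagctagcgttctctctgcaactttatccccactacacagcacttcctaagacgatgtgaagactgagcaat
Dph6 site, chr2:114739349-114739548: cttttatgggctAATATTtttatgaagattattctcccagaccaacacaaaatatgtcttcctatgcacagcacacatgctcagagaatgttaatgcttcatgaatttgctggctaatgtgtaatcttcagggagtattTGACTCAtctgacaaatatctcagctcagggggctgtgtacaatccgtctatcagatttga
The Pole4 site (score 1576) lay in an intron 12.6 kb from the start of Pole4, a DNA polymerase epsilon subunit, the Recql site (score 1526) in an intron 19.2 kb from the start of the DNA helicase gene Recql, and the Dph6 site (score 1276) between genes, 84.5 kb from the start of Dph6, an enzyme of diphthamide synthesis. The other 3 are the highest-scoring sites among those assigned to Robo1, Efna5 and Flrt2, the genes with the start nearest to the most lost sites.
Robo1 site, chr16:73288254-73288453: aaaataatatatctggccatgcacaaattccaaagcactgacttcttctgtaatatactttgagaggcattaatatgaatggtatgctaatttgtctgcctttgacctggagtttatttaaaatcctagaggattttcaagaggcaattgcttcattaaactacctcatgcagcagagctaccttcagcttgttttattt
Efna5 site, chr17:61204248-61204447: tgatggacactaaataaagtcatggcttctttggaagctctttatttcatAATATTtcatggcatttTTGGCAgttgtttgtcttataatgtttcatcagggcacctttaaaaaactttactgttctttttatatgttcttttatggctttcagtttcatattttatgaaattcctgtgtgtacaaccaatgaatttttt
Flrt2 site, chr12:95651196-95651395: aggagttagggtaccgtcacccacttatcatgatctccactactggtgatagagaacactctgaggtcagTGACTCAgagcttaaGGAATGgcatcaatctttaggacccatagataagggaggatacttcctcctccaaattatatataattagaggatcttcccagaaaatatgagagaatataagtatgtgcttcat
Their scores were 891 for Robo1, 558 for Efna5 and 345 for Flrt2. These 3 sites lay outside the genes they are named after. Robo1 spans chr16:72308306-73046095, Efna5 chr17:62604184-62881317 and Flrt2 chr12:95692226-95785215. The Flrt2 site held both an AP-1 and a TEAD motif, the Dph6 and Efna5 sites each held AATATT, and the Robo1 site held none of the 5 motifs.

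Lost sites were mostly weak MEF peaks. The peak caller MACS gave each peak a score of −10 log10 of its p-value, so that a higher score stands for a lower p. The median score was 156 (quartiles 121 and 233) in lost sites and 284 in other MEF peaks, and the median widths were 269 and 343 bp. Of MEF peaks with scores of 100 to 200, 25.7% were lost, of those with 200 to 400, 14.1%, and of those of 400 and above, 3.68%. This left 906 lost sites with scores of 400 and above, up to 2486. In the plot of peaks by number of libraries, the lost sites form a group of their own size beside a minimum at 3 libraries (4316 peaks) and the 26460 peaks found in all 8.

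**Figure D1:**
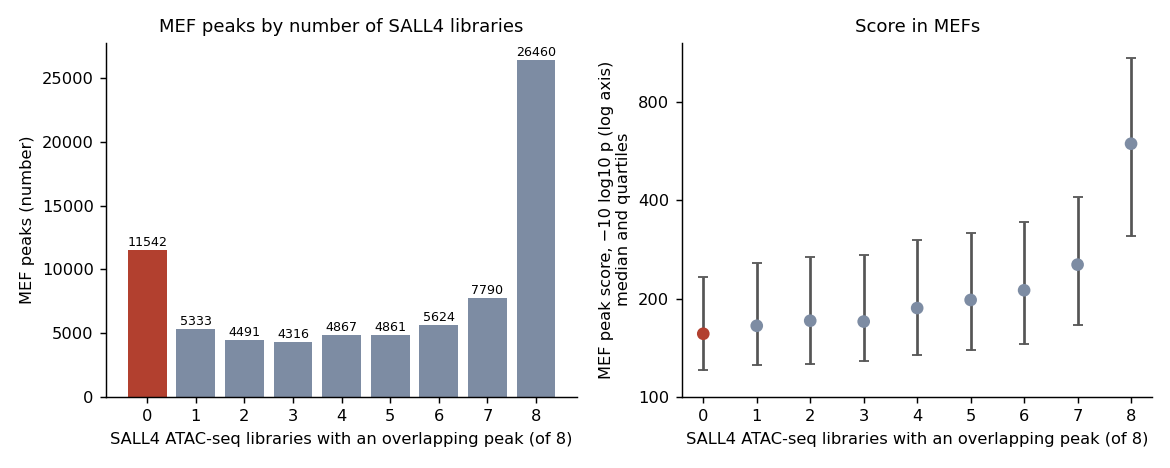
MEF peaks with a score of at least 100, by the number of the 8 SALL4 ATAC-seq libraries with an overlapping peak. Left, number of peaks; right, median MEF score with quartiles on a log axis; the lost sites (0 libraries, red, 11542 peaks) had the lowest median score, 156, and the peaks found in all 8 the highest, 596.

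The bounds of the rule were not gaps in the data. The lowest score of a lost site was 100.02, and the highest score of a MEF peak that met the rule but for its score was 99.99. There were 838 lost sites within 5 score units above the bound and 983 such peaks within 5 units below it. Just outside the other bound were 5333 MEF peaks with a peak in 1 library, with a median shared length of 148 bp (36 shared under 10 bp). The library in question was SALL4-delN12 day 1 for 1891 of them (35.5%) and another for 338 to 625 each. Single libraries lacked a peak at 34.9% (SALL4-delN12 day 9) to 47.4% (SALL4-WT day 1) of MEF peaks. All 4 SALL4-WT libraries lacked one at 19109 MEF peaks and all 4 SALL4-delN12 libraries at 15455, and the 11542 lost sites made up 60.4% of the first and 74.7% of the second. The 8 lists held 78517 to 98422 peaks against 125470 in MEFs, and all lists began at a score of 50. A lost site can therefore hold signal under that bound, and the number of reads behind the lists is unknown. From a lost site to the nearest peak of any of the 8 libraries the median distance was 4911 bp, 13.7% of the sites had such a peak within 500 bp, and 30.7% had none within 10 kb.

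The rule did not use where the sites lay. Lost sites were far from gene starts. Only 498 (4.31%, interval 3.95 to 4.7) were promoter sites, centered within 2 kb of the start of a protein-coding gene, against 27.2% (26.9 to 27.5) of the other MEF peaks. Another 51.6% lay between genes, 42.6% in introns, 1.08% in untranslated regions and 0.433% in coding exons. The median distance to the nearest start was 68139 bp (quartiles 22522 and 187151 bp) against 19465 bp (1078 and 66636 bp), and 23.5% of lost sites but 8.34% of the others were over 200 kb from any start. Outside promoters the medians were 74231 and 37962 bp. MEF peaks with a peak in 1 library were closer to the lost sites in these values, with 7.61% in promoters and a median distance of 49431 bp. Those with a peak in all 8 had 46.3% and 4912 bp. Lost sites made up 11.9% (chromosome 7) to 19% (chromosome X) of the MEF peaks of a chromosome, with chromosome Y (1 of 6 peaks) left aside.

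**Figure D2:**
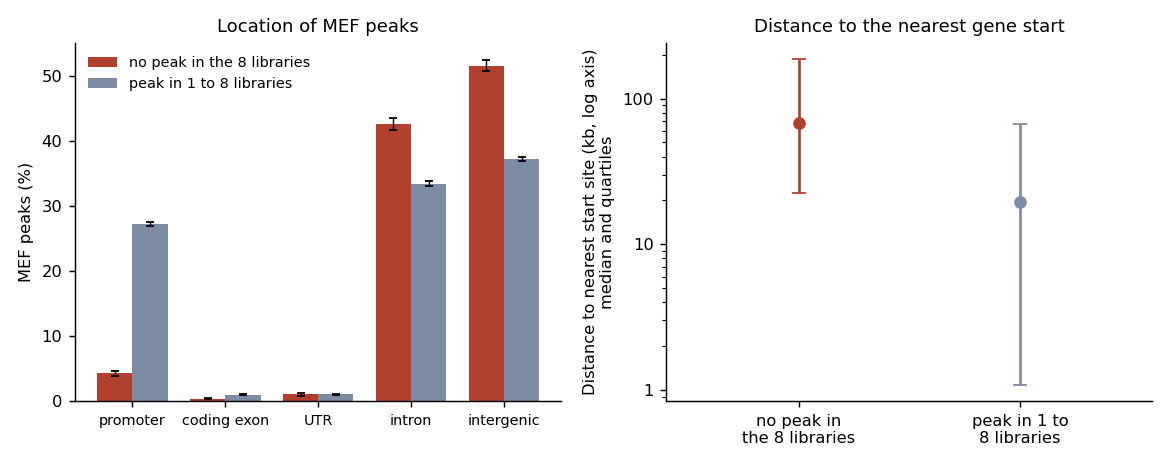
Location of lost MEF sites (red) and other MEF peaks (gray). Left, share of peaks by location with exact 95% intervals, with promoters at 4.31% against 27.2%; right, median and quartiles of the distance to the nearest protein-coding start site on a log axis, with medians of 68139 and 19465 bp.

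The sequence of the lost sites was poor in G and C. The central 200 bp held 44.4% G and C (SD over sites 6.63) and 2.11 CpG on average, against 53.1% (SD 9.91) and 6.55 in other MEF peaks. The share grew step by step with the number of libraries that kept a peak, from 46.6% at 1 library to 57.7% at 8. Repeats took up 12.3% of lost windows and 8.88% of the others. Since promoters are rich in CpG, motif shares below are given for the 11044 lost sites and 46392 other MEF peaks outside promoters, a choice made after the data were seen.

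Of the 17 motifs searched, the AT-rich hexamer AATATT had the highest ratio between lost sites and other MEF peaks. It was in 11.4% (10.8 to 12) of the lost sites and 4.32% (4.14 to 4.51) of the others. TEAD motifs (GGAATG) were in 28.3% (27.4 to 29.1) and 21.9% (21.5 to 22.3), and NFI motifs (TTGGCA) in 18.1% (17.4 to 18.8) and 14.2% (13.9 to 14.5). The CArG box of serum response factor, which drives contractile genes, was in 2.36% and 1.28%, the MEF2 site in 1.2% and 0.703%, and the POU octamer ATGCAAAT in 1.58% and 0.992%. For each of these 6 motifs the intervals of the 2 groups did not overlap.

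The AP-1 motif TGACTCA, in contrast, was in 20.4% (19.6 to 21.1) of the lost sites outside promoters and in 30% (29.5 to 30.4) of the others. With promoters counted the shares were 19.9% and 23.1%. CTCF motifs (CAGNNGGC) were in 11.3% (10.7 to 11.9) and 20.5% (20.1 to 20.9), the ETS motif CCGGAAG in 0.589% and 1.55%, and the SP motif GGGGCGG in 1.2% and 3.24%. RUNX (TGTGGTT, 8.49% and 8.23%), SOX (ACAATG, 10.3% and 10.3%), FOX (TGTTTAC, 2.73% and 2.78%) and CEBP (TTGCNNAA, 9.68% and 9.29%) had overlapping intervals. AP-1 and TEAD motifs stood together in 4.45% of lost sites and 5.86% of the others. The GATA motif AGATAA (9.64% and 7.89%), the TWIST E-box CATCTG (18.9% and 20.3%) and the KLF motif GGGTGTG (4.72% and 6.08%) differed by under 2 percentage points. Their intervals did not overlap either. A match is a description of letters and not a bound factor, and 16.5% of all lost sites held none of the 17.

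**Figure D3:**
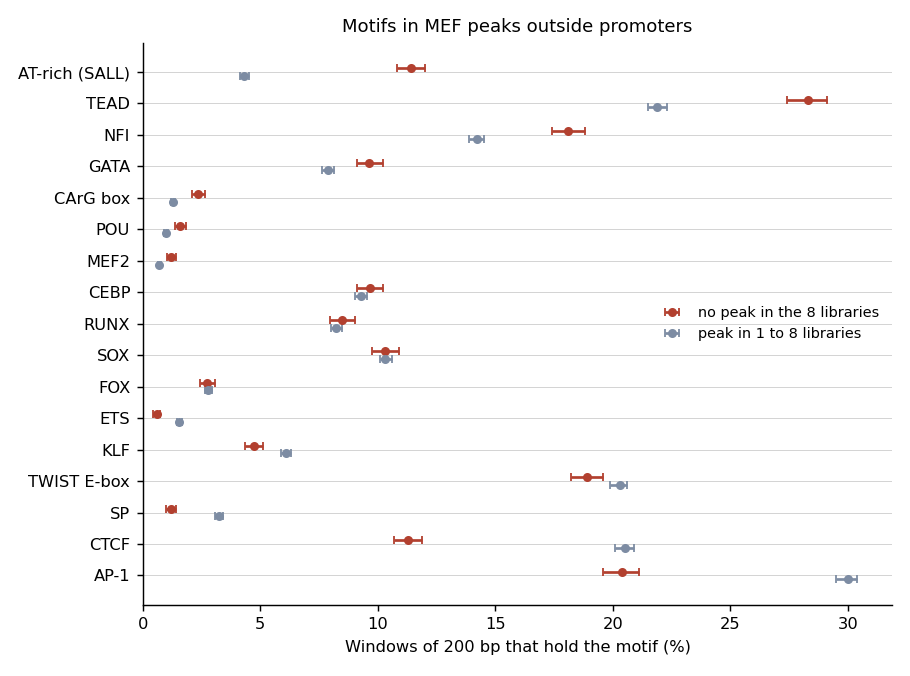
Share of 200-bp windows outside promoters that hold each motif, in 11044 lost MEF sites (red) and 46392 other MEF peaks (gray), with exact 95% intervals. Motifs are ordered by the difference, from AATATT and TEAD, higher in lost sites, to CTCF and AP-1, lower in lost sites (20.4% against 30% for AP-1).

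Low GC content alone changes such shares, so the windows were also split by it after the data were seen. Below 40% GC the AATATT shares were 20.7% of lost sites and 13.9% of the others, and above 50% they were 3.23% and 1.51%. For TEAD the shares were 27.9% and 22.4% below 40% GC and 25% and 19.1% above 50%, and for NFI 18.7% and 12.9%, and 17.2% and 13.5%. AP-1 motifs were in 26.1% and 36.5% below 40% GC and in 11.2% and 23.5% above 50%. In the classes of 40 to 45% and 45 to 50% these 4 motifs, the CTCF motif and the CArG box kept the same order, the CArG box with overlapping intervals below 40%. Other motifs did not keep theirs. At 40 to 45% GC, GATA was in 10% of lost sites and 11.8% of the others, POU in 1.66% and 1.75% and SP in 0.67% and 0.478%. MEF2 had overlapping intervals in every class (0.404% and 0.449% above 50%). KLF, FOX and the TWIST E-box also changed order between classes, and the ETS motif, lower in lost sites throughout, had overlapping intervals below 50%. SOX, RUNX and CEBP, alike over all windows, had lower shares in lost sites in every class, with 11.3% and 14.9% for SOX, 9.93% and 10.9% for RUNX and 10.9% and 12.2% for CEBP at 40 to 45%. The intervals overlapped for SOX below 40% GC and for RUNX at 40 to 45% and above 50%. For CEBP they overlapped in every class but 45 to 50%. Within score classes, the AP-1 shares outside promoters were 20.2% and 28.7% at scores of 100 to 200 and 19.5% and 30.6% at 400 and above. With promoters counted the order at 400 and above was reversed, with lost sites 0.514 percentage points higher, a difference whose 95% Wald interval (−2.1 to 3.13) includes 0.

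The Cut&Tag libraries of day 6 had no part in the rule. SALL4-WT peaks lay at 849 lost sites, 7.36% (6.89 to 7.85), and SALL4-delN12 peaks at 3335, 28.9% (28.1 to 29.7). The SALL4-WT share depended on the rule, with 4.24% when sites with an ATAC-seq peak within 500 bp were left out and 14.2% when ATAC-seq peaks had to cover 50% of the MEF peak to count, while the SALL4-delN12 shares were 24.7% and 38.7%. At the other MEF peaks the shares were 60.3% (59.9 to 60.7) for SALL4-WT and 59.2% (58.8 to 59.6) for SALL4-delN12, and the lists held 69475 and 67310 peaks in all. Both forms had a peak at 437 lost sites, SALL4-delN12 alone at 2898, SALL4-WT alone at 412 and neither at 7795 (67.5%). Among the other MEF peaks, 15.6% had a peak of SALL4-delN12 alone and 16.7% of SALL4-WT alone. At the 5333 MEF peaks with a peak in 1 library, the shares were 19.1% for SALL4-WT and 46.9% for SALL4-delN12, and at the 26460 with a peak in all 8 the order was the other way, with 84.9% and 69.9%.

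The gap between the forms was wider at strong MEF peaks. Of lost sites with scores of 400 and above, 5.52% (4.12 to 7.21) had a SALL4-WT peak and 44.6% (41.3 to 47.9) a SALL4-delN12 peak, against 7.84% and 25.1% at scores of 100 to 200. With only Cut&Tag peaks of score 100 and above, the shares of all lost sites were 3.1% and 17%. SALL4 peaks at lost sites had lower scores than those at other MEF peaks, with medians of 88.3 and 146 for SALL4-WT and of 114 and 165 for SALL4-delN12. Each Cut&Tag list comes from merged replicates, so these shares have no replicate, and Cut&Tag cuts with the same transposase as ATAC-seq, whose part in these peaks was not tested.

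H3K27ac peaks were scarce at lost sites. They lay at 1.39% (1.18 to 1.62) in SALL4-WT cells and 8.63% (8.12 to 9.16) in SALL4-delN12 cells, against 32% and 60% of the other MEF peaks. The other MEF peaks held more promoters and had higher scores. Outside promoters the shares were 0.779% and 7.61% at lost sites and 17.2% and 50.5% at the others. At scores of 100 to 200 they were 1.65% and 9.17%, and 17.6% and 42.3%. Shares were also low at MEF peaks with an ATAC-seq peak in 1 library, at 4.48% and 19.7%. The SALL4-WT list held 19841 H3K27ac peaks and the SALL4-delN12 list 45599, and how far the length of the lists sets the shares was not tested. In SALL4-delN12 cells, 20.3% (18.9 to 21.7) of the lost sites with a SALL4 peak and 3.9% (3.49 to 4.34) of those without had an H3K27ac peak. In SALL4-WT cells the order was the same, with 9.54% (7.65 to 11.7) and 0.739% (0.585 to 0.92). Lost sites with a SALL4-delN12 peak had a median MEF score of 175 and 42.8% GC, and those without 150 and 45%. RUNX motifs were in 11% (9.93 to 12.1) of the first and 7.3% (6.75 to 7.88) of the second, and AP-1 motifs in 22.6% and 18.8%. GATA motifs were in 11.7% (10.7 to 12.9) and 8.5% (7.91 to 9.13), and the TWIST E-box in 21.1% and 17.7%. AATATT, in 12.4% (11.3 to 13.5) and 10.7% (10.1 to 11.4), had overlapping intervals, as had TEAD motifs, in 27.7% and 28%.

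**Figure D4:**
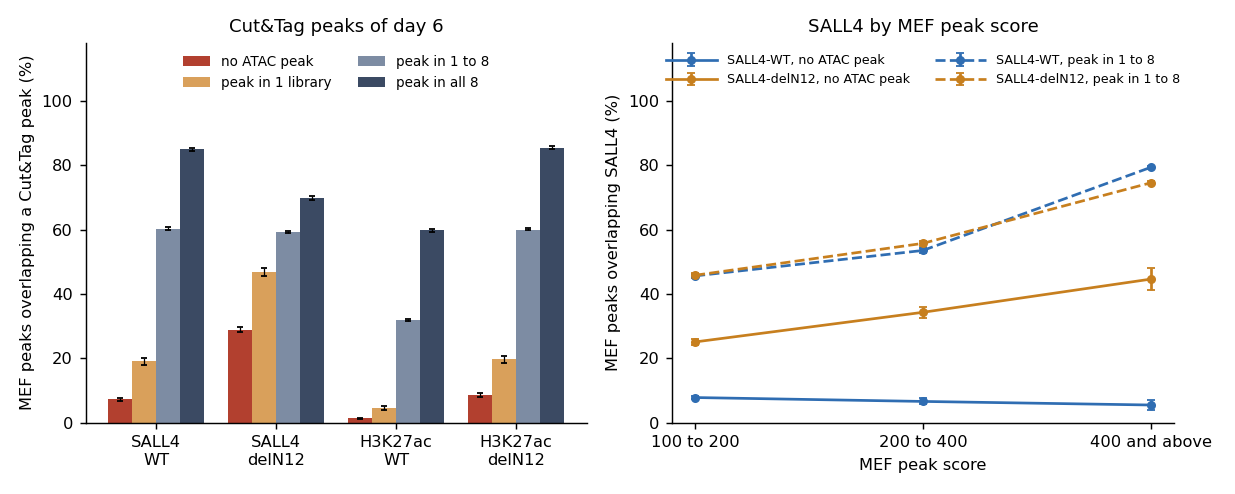
Left, share of MEF peaks that overlap a Cut&Tag peak of day 6, for lost sites (no ATAC peak), peaks in 1 library, peaks in 1 to 8 libraries and peaks in all 8, with exact 95% intervals. Right, the share with a SALL4 peak by MEF score, for lost sites (solid lines) and peaks in 1 to 8 libraries (dashed); at lost sites of score 400 and above it was 5.52% for SALL4-WT and 44.6% for SALL4-delN12.

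The lost sites were assigned to 5076 genes by the nearest protein-coding start site, and 4864 of these (95.8%) were in the FPKM table. Nearest does not mean regulated. Of the 5076 genes, 2667 were nearest to 1 lost site and 560 to 5 or more, and these 560 took 4026 of the 11542 sites. No RNA-seq library of untreated MEFs was analysed here. As a start served the day 0 library of JGES cells, MEFs that had received viruses of Jdp2, Glis1, Esrrb and Sall4 for 2 days, in which Sall4 stood at 650 FPKM, Jdp2 at 375, Esrrb at 240 and Glis1 at 0.45. The value of Glis1 does not bear out its delivery as labelled. Sall4 was at 290 to 549 FPKM in the SALL4-WT libraries and 428 to 971 in those of SALL4-delN12. Changes are differences of log2(FPKM+1) for genes with at least 1 FPKM in either library, which compresses changes of low genes. All comparisons with day 0 share that library. In bulk RNA, fewer cells of a type and less RNA per cell cannot be told apart.

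At day 1, genes nearest to lost sites stood below the day 0 library more often than protein-coding genes as a whole. In SALL4-WT cells 607 of 3015 such genes (20.1%) were at least 2-fold lower and 11.1% at least 2-fold higher, where 12.7% and 15.2% of all protein-coding genes were. In SALL4-delN12 cells 722 of 3003 (24%) were lower and 10.6% higher, against 14.9% and 15%. The median differences were −0.25 and −0.33, against −0.04 and −0.07 over all protein-coding genes.

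The share of lower genes was higher the more lost sites a gene was nearest to. In SALL4-WT cells of day 1, 16.2% of the genes with 1 lost site, 19.8% with 2, 24.4% with 3 or 4 and 33.5% (28.5 to 38.9) with 5 or more were at least 2-fold lower. In SALL4-delN12 cells the shares were 19.4%, 22%, 29.7% and 42.4% (37.0 to 48.0). Genes nearest to 5 or more other MEF peaks but to no lost site had 14.6% (12.7 to 16.7) in SALL4-WT and 15.5% (13.5 to 17.6) in SALL4-delN12 cells. All genes nearest to other MEF peaks but to no lost site had 9.88% and 11.3%, so the share was also higher with more of the other peaks. The groups were not matched by their total number of MEF peaks, whose part was not tested.

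At day 11 the 2 forms were further apart at these genes. With 5 or more lost sites, 20.1% (16.1 to 24.7) were at least 2-fold below day 0 in SALL4-WT cells and 35.9% (30.9 to 41.3) in SALL4-delN12 cells, with median differences of −0.18 and −0.62. Genes nearest to 5 or more other MEF peaks but to no lost site had 13.3% and 13.9%. Over all genes nearest to lost sites, 14.7% were lower and 16.5% higher in SALL4-WT cells, where 11.3% and 16.6% of all protein-coding genes were. In SALL4-delN12 cells 19.5% were lower and 14.1% higher, against 12.1% and 17.7%. From day 1 to day 11 within a form, a comparison without the day 0 library, 15.4% of the genes nearest to lost sites were at least 2-fold higher and 6.13% lower in SALL4-WT cells, against 10.8% and 8.2% of all protein-coding genes. In SALL4-delN12 cells they were 11.9% and 5.31%, against 10.1% and 4.31%. With 5 or more lost sites, 24.6% (82 of 333 genes) were higher in SALL4-WT and 14.2% (43 of 303) in SALL4-delN12 cells. No ATAC-seq peak returned at the lost sites in these libraries, by the rule itself.

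**Figure D5:**
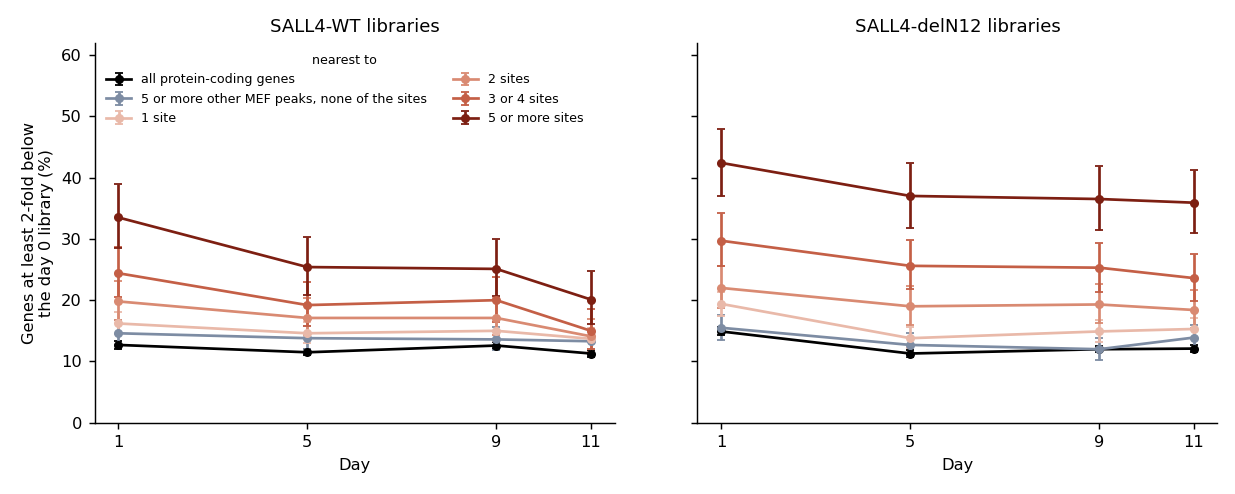
Share of genes at least 2-fold below the day 0 library (FPKM of at least 1 in either library), by day, in SALL4-WT (left) and SALL4-delN12 cells (right), with exact 95% intervals. Genes are grouped by the number of lost MEF sites (called sites) they were nearest to; genes nearest to 5 or more went from 33.5% at day 1 to 20.1% at day 11 in SALL4-WT cells and from 42.4% to 35.9% in SALL4-delN12 cells.

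Markers of other cell types moved beside these values. The summed FPKM of 10 macrophage markers was 8.18 at day 0, then 143, 46.5, 32.7 and 32.5 in SALL4-WT and 217, 253, 245 and 502 in SALL4-delN12. C1qa, a complement gene of macrophages, was at 0.621 at day 0, 2.43 to 16.1 in SALL4-WT and 45.8 to 116 in SALL4-delN12, and the receptor gene Csf1r at 0.918, 0.803 to 3.4 and 6.92 to 9.06. The 10 fibroblast markers summed to 1425 at day 0, to 1104 to 2169 in SALL4-WT and to 1935 to 2301 in SALL4-delN12. Endothelial markers summed to 13.8 at day 0, 8.07 to 21 in SALL4-WT and 14.8 to 19.9 in SALL4-delN12. Skeletal muscle markers summed to 68.1 at day 0, to 16, 18.7, 22.7 and 16.2 in SALL4-WT and to 17.8, 46.9, 37.4 and 49.4 in SALL4-delN12, so that both forms stood well below day 0 at day 1. Their part in the differences between libraries was not tested.

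The 10 genes nearest to the most lost sites are given with their numbers of MEF peaks. Sites assigned to a gene can lie outside it, as the Robo1, Efna5 and Flrt2 sites shown above do. Robo1, a receptor of SLIT guidance proteins, and Efna5, an ephrin ligand, had 22 lost sites each, of 50 and 54 MEF peaks. Flrt2, an adhesion protein, had 21 of 48, Adamts5, a protease of the matrix proteoglycan aggrecan, 20 of 39, and Pde4d, a cAMP phosphodiesterase, 20 of 65. Efnb2, another ephrin, had 19 of 45, and Adgrl2 (latrophilin 2), Plxdc2 and Tenm3 (teneurin 3), all membrane proteins, 18 of 40, 31 and 55. Trib2, a pseudokinase, had 17 of 43. These genes were chosen by their number of lost sites, and 0 to 3 of the sites of each had a SALL4-WT peak and 2 to 10 a SALL4-delN12 peak, beside 7.36% and 28.9% of all lost sites.

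At several of them the values of the forms did not overlap. Adamts5 was at 6.46 FPKM in the day 0 library, at 1.87, 1.74, 1.93 and 5.36 at days 1, 5, 9 and 11 of SALL4-WT, and at 0.571, 0.229, 0.24 and 0.313 in SALL4-delN12. The 4 values of SALL4-delN12 all lay below those of SALL4-WT, and the day 11 value of SALL4-WT was near that of day 0. Plxdc2 was at 9.15 at day 0, at 2.07, 2.59, 2.82 and 5.23 in SALL4-WT, and at 0.842, 0.517, 0.208 and 0.585 in SALL4-delN12, a difference from day 0 of −0.70 and −2.68 on the log2 scale at day 11. Robo1 was at 4.43 at day 0, at 1.07, 2.65, 2.30 and 4.76 in SALL4-WT and at 0.83, 1.4, 1.49 and 2.38 in SALL4-delN12. Here the forms overlapped, and both had their lowest value at day 1 and their highest at day 11. Flrt2 was at 6.99 at day 0, at 4.13, 8.77, 12.1 and 10 in SALL4-WT and at 1.85, 2.49, 3.54 and 3.54 in SALL4-delN12, so that the day 0 value lay between the ranges of the forms from day 5 on.

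In Adgrl2, Tenm3 and Efnb2 all 8 values lay below day 0. Adgrl2 stood at 33.2 FPKM at day 0 and between 6.61 and 13.1 in all 8 libraries. Tenm3 stood at 4.54 and between 0.703 and 1.24, and Efnb2 at 18.2 and between 4.68 and 9.6. Efna5 and Trib2 differed between the forms, with SALL4-WT above and SALL4-delN12 below the day 0 library at day 11. Efna5 (5.21 at day 0) was at 5.08 to 9.26 in SALL4-WT and 3.37 to 4.37 in SALL4-delN12, and Trib2 (5.14) at 4.93 to 9.48 and 1.61 to 4.13. Pde4d was under 1 FPKM in all 9 libraries, with 20 lost sites beside little RNA at any time.

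Among genes grouped by function, mesenchymal transcription factors had the largest share of lost sites among the 10 lists. Of 32 mesenchymal factors, 25 were nearest to at least 1, and 26% of their 388 MEF peaks were lost. Over all protein-coding genes with FPKM values, 4864 of 20462 were nearest to at least 1 lost site. Such counts of genes do not allow for the number of MEF peaks per gene, whose part was not tested. Zeb2, a repressor that drives the mesenchymal state, had 16 of 50. It was at 8.41 FPKM at day 0, between 6.94 and 11.1 in SALL4-WT and between 3.28 and 4.15 in SALL4-delN12. Ebf1, a factor of stromal and B cells, had 9 of 28 and was at 2.31 at day 0 and between 0.217 and 0.853 in the 8 libraries. Meox2, a homeobox factor, had 7 of 10 but stood under 1 FPKM in all 9 libraries. Runx1, with 3 of 41, was higher than at day 0 (1.82) in all 8, at 9.44 to 16. Of 20 of these genes with enough RNA, 7 were at least 2-fold below day 0 and 3 above at day 11 in SALL4-WT, and 9 and 2 in SALL4-delN12, where 11.3% and 16.6% of all protein-coding genes were in SALL4-WT and 12.1% and 17.7% in SALL4-delN12.

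Of 39 genes of fibroblast matrix and contraction, 29 were nearest to lost sites, with 96 of 419 MEF peaks lost (22.9%). Over all protein-coding genes with FPKM values, 4864 of 20462 were nearest to lost sites, without allowance for the number of MEF peaks per gene. At day 1, 15 of the 29 were at least 2-fold lower and 1 higher in SALL4-WT, and 14 and 3 in SALL4-delN12. At day 11 the counts were 10 and 6 in SALL4-WT and 19 and 3 in SALL4-delN12, with medians of −0.15 and −1.56. The shares over all protein-coding genes were 12.7% lower and 15.2% higher (SALL4-WT) and 14.9% and 15% (SALL4-delN12) at day 1, and those given above at day 11. Fn1 (fibronectin), with 6 of 21 MEF peaks lost, was at 708 FPKM at day 0, at 467, 756, 895 and 958 in SALL4-WT and at 218, 87.7, 110 and 87.4 in SALL4-delN12. The forms did not overlap, and from day 5 on SALL4-WT was above and SALL4-delN12 below the day 0 library. Col8a1, a short-chain collagen, with 9 of 13 lost, was at 12.8 at day 0, at 3.22, 7.51, 10.7 and 17.1 in SALL4-WT and at 0.619, 2.10, 2.27 and 4.75 in SALL4-delN12. It had its lowest value at day 1 in both. Thbs1 (thrombospondin 1), with 10 of 35 lost, was at 437 at day 0 and at 56.8 to 107 and 26 to 43.3, and Tnc (tenascin C), with 9 of 33, at 88.8 and at 15.3 to 38.4 and 6.08 to 23.7.

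The macrophage list, with 8 of 35 MEF peaks lost, had the same share of 22.9% over few peaks. Elsewhere the shares were lower. Lost sites made up 13.3% of 135 MEF peaks at AP-1 genes, 13.5% of 311 at genes of the TGF-beta pathway, 10.9% of 138 at TEAD and YAP targets, 18.9% of 127 at primitive endoderm genes, 11.3% of 62 at pluripotency genes, 9.84% of 61 at endothelial and 9.52% of 21 at skeletal muscle genes, beside 15.3% of all MEF peaks. Maf (8 of 37 lost) was at 6.36 FPKM at day 0 and at 14.2 to 23.9 in the 8 libraries, while Fosl2 (4 of 20), at 11.8 and 12 to 23.9, and Jun (2 of 15), at 43.9 and 31.7 to 62.6, had differences under 2-fold on the log2(FPKM+1) scale. Of the 7 TEAD and YAP targets nearest to lost sites, 5 were at least 2-fold lower and 0 higher at day 1 in both forms. Of all protein-coding genes, 12.7% were lower and 15.2% higher in SALL4-WT, and 14.9% and 15% in SALL4-delN12. At day 11, 3 of the 7 were lower in SALL4-WT and 4 in SALL4-delN12, with 0 higher. The shares over all protein-coding genes were 11.3% and 12.1% lower, and 16.6% and 17.7% higher. With 7 genes, the 0 higher lies near those shares at both days. Crim1 (8 of 16 lost) was at 21 at day 0, at 7.76 and 17.8 at days 1 and 11 of SALL4-WT and at 3.73 and 12.1 in SALL4-delN12. Ankrd1, a muscle and stress gene, was at 38.1 and at 1.85 to 6.37 in the 8 libraries. Of 15 TGF-beta genes nearest to lost sites, 1 was at least 2-fold lower and 1 higher at day 11 in SALL4-WT, and 2 and 2 in SALL4-delN12, beside 11.3% lower and 16.6% higher, and 12.1% and 17.7%, of all protein-coding genes. Ltbp1, which tethers latent TGF-beta to the matrix, had 8 of 32 lost and was at 20.4 at day 0, 12.9 to 23.5 in SALL4-WT and 4.02 to 7.99 in SALL4-delN12. Tgfb3, a TGF-beta ligand with 5 of 15 lost, was at 90.4 at day 0 and at 89.6 and 90.8 at day 11 of the 2 forms, and the receptor gene Tgfbr2, with 7 of 32 lost, at 48.7, 74.9 and 36.8.

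Primitive endoderm is the layer of the early embryo that lines the yolk sac. Of 9 of its genes nearest to lost sites, 6 were at least 2-fold above day 0 and 0 below at day 11 in SALL4-delN12, and of 7 with enough RNA in SALL4-WT 2 were above and 1 below. Over all protein-coding genes 17.7% were above and 12.1% below in SALL4-delN12, and 16.6% and 11.3% in SALL4-WT. At day 1, 2 of 7 were lower and 0 higher in each form, with medians of −0.37 in SALL4-WT and −0.91 in SALL4-delN12. Of all protein-coding genes, 12.7% were lower and 15.2% higher at day 1 in SALL4-WT, and 14.9% and 15% in SALL4-delN12. With 7 genes, these counts lie near those shares. Dab2, an endocytosis adaptor of this layer, had 9 of 23 MEF peaks lost and was at 25.3 at day 0, 7.93 to 11.6 in SALL4-WT and 6.32, 6.80, 10.7 and 22.7 in SALL4-delN12. Foxa2, an endoderm factor with 3 of 19 lost, was listed at 0 at day 0, at 0.0542 to 0.462 in SALL4-WT and at 0.143, 0.046, 2.59 and 7.68 in SALL4-delN12. For Foxa2, lost MEF sites stood beside higher RNA in the last 2 SALL4-delN12 libraries.

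RNA values were taken for genes of the TEAD, NFI, AP-1 and RUNX families. Tead1 was at 47.4 FPKM at day 0 and at 12.5 to 19.6 in the 8 libraries, and Tead3 at 33.9 and 6.29 to 9.9. Tead4, itself nearest to a lost site, was at 8.08 and 1.14 to 2.44, while Tead2 was at 51.5 and 15.5 to 47.0. Nfix was at 31.2 and 2.29 to 12.8, and Nfib at 24.6, 11.1 to 24.3 in SALL4-WT and 2.78 to 9.35 in SALL4-delN12, while Nfic was at 23.1, 21.3 to 26.1 and 13.9 to 20.9. Junb was at 240 at day 0, 229 to 259 in SALL4-WT and 77.4 to 128 in SALL4-delN12, and Jund stood between 117 and 152 in all 9. Other AP-1 genes stood above day 0 in some libraries, with Fos at 20.7 at day 0, 26 to 85.4 in SALL4-WT and 15.7 to 49.8 in SALL4-delN12. Fosl1 was at 9.45 and, at day 1, at 45.3 and 41.8 in the 2 forms, and Fosb at 0.339 and 0.867 to 4.02. Nfia was at 4.76 at day 0, 2.26 to 3.68 in SALL4-WT and 1.27 to 1.64 in SALL4-delN12. Runx2 was at 3.44, 3.5 to 5.66 and 1.06 to 2.15, so below day 0 only in SALL4-delN12, while Runx1 was above day 0 in all 8 libraries.

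Ranked by the mean difference of both forms at day 11 from day 0, the genes nearest to lost sites that stood furthest below were Pcdh8, a protocadherin, Clca3a1, a regulator of chloride channels, the mesenchymal factor Osr1, Jdp2 and the forkhead factor Foxs1. Pcdh8 stood at 51 FPKM at day 0 and under 1 in all 8 libraries. Clca3a1 was at 39.7 and 0.123 to 0.453, with both of its lost sites under SALL4 peaks of both forms. Osr1 was at 54.8 at day 0, at 7, 5.02, 2.56 and 3.12 in SALL4-WT and at 5.47, 1.08, 0.153 and 0.505 in SALL4-delN12. Foxs1 was at 17.4 and 0.086 to 2.71. Jdp2 was delivered to the JGES cells of day 0, so viral and own RNA cannot be told apart there (375 and 10.3 to 21.5). Furthest above stood Mgst1, a glutathione transferase (1.63 at day 0, 241 and 90.2 at day 11 of SALL4-WT and SALL4-delN12), Spp1, osteopontin (20.5, 1398 and 757), the WNT inhibitor Apcdd1 (2.64, 64.2 and 158), Xdh, xanthine dehydrogenase (0.146, 56.3 and 12.7), and the protease inhibitor Spint2 (2.12, 61.9 and 86.8). Each of them had 1 or 2 lost sites.

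Of the 10 highest-scoring lost sites, most lay near genes within 2-fold of day 0 or with little RNA. The highest score, 2486, belonged to a site of 395 bp in the untranslated part of Pcp4, a calmodulin regulator, at chr16:96525382-96525776, 58 kb from the gene start and 30.9 kb from the nearest peak of the 8 libraries. It had a SALL4-WT and no SALL4-delN12 peak. Pcp4 was listed at 0 at day 0 and reached 1.81 and 1.06 FPKM at day 11 of the forms. Pole4 (15.4 to 25 FPKM) and Recql (2.49 to 3.8) were within 2-fold of day 0 in all libraries, as was Dph6 (5.15 to 8.11). Clint1, a clathrin adaptor, was at 45.2 at day 0 and 23.3 to 29.2 in the 8 libraries, and Gnas, the stimulatory G protein, at 139 and 69.8 to 91.5. Nrg1, an ERBB ligand with 11 of 40 MEF peaks lost, was at 0.442 at day 0, at 2.27, 3.79, 5.40 and 4.79 in SALL4-WT and at 0.282 to 0.686 in SALL4-delN12. Myo3b and Cyb5r2 stayed under 1 FPKM, and Prr30 was listed at 0 in all 9. Besides Pole4, Recql and Dph6, SALL4-delN12 peaks lay at the Clint1 and Prr30 sites, of which the Clint1 site also had a SALL4-WT peak.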

How the data were processed

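The authors trimmed reads with Trim Galore 0.6.4, mapped ATAC-seq and Cut&Tag reads to mm10 with Bowtie2 2.4.5 and deposited MACS 1.4.2 peak lists, in which each peak has a score. Cut&Tag replicates had been merged before peak calling. For RNA-seq, the authors used HISAT2 2.2.1 and deposited StringTie 2.2.1 FPKM values. The numbers of reads are unknown, so precision beyond counting of sites is not known.

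Peaks were compared by overlap of at least 1 bp. Centers were assigned to the nearest start site of any protein-coding transcript (GENCODE annotation of mm10). Motifs were searched as exact letters on both strands in 200 bp of the mm10 genome, and the functions were tested on simulated data. Expression differences used log2(FPKM+1) and genes with at least 1 FPKM in either library. Analyses were run in Python 3.11.15 with NumPy 2.4.6, pandas 2.3.3 and SciPy 1.17.1. The sites and gene lists were chosen with earlier results of these data known. Named genes were those nearest to the 10 highest-scoring sites or to the most sites (10 genes), and up to 4 per gene list by summed score. Further ones, with at least 5 FPKM, were the 5 furthest below and the 5 furthest above the day 0 library at day 11. These were ranked by the mean of both forms. Alternatives are given in the closing section. Other libraries of the series, among them 7 columns of the FPKM table and the single cells, were not used here.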

Additional observations from a re-analysis of the deposited data

How the results depend on the processing

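The number of lost sites rests on the peak lists. It was 34464 with no score minimum, 3785 with a minimum of 200 and 21959 when only day 11 of both forms counted, while leaving out single libraries from the rule, a margin of 500 bp and an overlap of at least 50% of the MEF peak kept it within 1.5 times of 11542 (9965 to 16448). The promoter share was 6.35%, 3.01%, 2.96% and 6.33% with no score minimum, a minimum of 200, the margin and the longer overlap, and 2.89% and 7.17% with promoters of 1 and 5 kb. The AP-1 share of lost sites minus that of other MEF peaks, −3.20 percentage points, was −5.85, −1.50, −1.98 and −4.09 under these 4 settings, −1.47 in 50 bp, −7.36 in whole peaks, −5.57 and −5.43 at scores of 100 to 200 and 200 to 400, and reversed to 0.514 at 400 and above. Outside promoters, a choice made after seeing the data, it was −9.60, and it was below 0 there in each score class.

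The SALL4-WT share was 8.50%, 6.37%, 4.24% and 14.2% under the same 4 settings, 6.63% and 5.52% at scores of 200 to 400 and above, and the SALL4-delN12 share was 23.2%, 36.8%, 24.7% and 38.7%, and 25.1%, 34.3% and 44.6% by score class. With Cut&Tag peaks of score 100 and above, also chosen after seeing the data, they were 3.10% and 17.0%. SALL4-delN12 was the higher in all of these settings. The share of nearest genes at least 2-fold lower at day 11 was 13.4% (SALL4-WT) and 16.2% (SALL4-delN12) with no score minimum, and 22.8% in SALL4-delN12 with a minimum of 200. A pseudocount of 0.1 gave 19.4% and 24.6%, no FPKM filter 9.54% and 12.6%, start sites within 50 kb 16.3% and 21.2%, libraries scaled to the same median ratio 13.7% and 17.6%, and day 11 against day 1 of the same form 6.13% and 5.31%. The causes were not tested. Each condition has 1 sample, so replicate numbers pair no samples, and a comparison of the forms with the 4 days as pairs was not run. Peak lists without read counts limit what absence of a peak can show, and 1 library per condition limits each difference.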

Other observations

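Lost MEF sites were in part neighbors. Along the chromosomes, 2348 of the 11542 (20.3%) stood in runs of 3 or more MEF peaks of score 100 and above that were all lost, and 86 runs held 5 or more. The most compact of the longest runs was at Foxp2, a forkhead factor, with 9 lost sites in 229 kb (chr6:15056754-15285488). Foxp2 had 10 of 13 MEF peaks lost and stayed under 1 FPKM in all 9 libraries. A run of 10 sites in 1240 kb of chromosome 4 had Mmp16, a membrane protease, and Cnbd1 as nearest genes, and Mmp16 too stayed under 1 FPKM. A run of 8 sites in 541 kb had AW209491 and Gli3, a factor of hedgehog signaling, as nearest genes. Gli3 had 8 of 32 MEF peaks lost, not all of them in this run, and was at 13.9 FPKM at day 0 and 3 to 5.77 in the 8 libraries. Csmd1, with 12 of 17 MEF peaks lost and a run of 8, was at or near 0 throughout. These runs were chosen after their values were seen.

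The 498 promoter sites belonged to 470 genes. Of those with enough RNA, 26.2% in SALL4-WT and 31.3% in SALL4-delN12 cells were at least 2-fold below the day 0 library at day 1, and 13.5% and 14% above, beside 12.7% and 14.9% below and 15.2% and 15% above among all protein-coding genes. The single MEF peak of Apoe, a lipid carrier, was lost (score 573). It was centered 1.62 kb downstream of the nearest annotated transcript start. The peak (chr7:19696271-19697018) lay inside the gene (chr7:19696109-19699188, minus strand), near the end away from its outermost start. Apoe had higher RNA from day 5 on. It was at 167 FPKM at day 0, at 149, 725, 1226 and 1863 at days 1, 5, 9 and 11 of SALL4-WT and at 96.4, 625, 965 and 1870 in SALL4-delN12, and it was singled out after its values were seen. Macrophages also express Apoe, and the summed macrophage markers moved as given above, whose part was not tested. In JGES cells without BMP4, which carry SALL4 with other factors, 27.7% of the genes with 5 or more lost sites were at least 2-fold lower at day 7 than at day 0, against 14.3% (12.4 to 16.3) of the genes nearest to 5 or more other MEF peaks but to no lost site and 9.69% of all protein-coding genes, whose median difference was 0.23.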
